A study of Mus musculus with 12 samples.

Results

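The phagocyte NADPH oxidase and the mitochondrial superoxide dismutase were followed here through 7 genes in bone marrow-derived macrophages (BMDMs), with and without activation of the NLRP3 inflammasome and with and without Nlrp3. Cybb, Cyba, Ncf1, Ncf4, Rac1, Rac2 and Sod2 were taken by symbol from the 55335 genes of the deposited table, and each symbol matched 1 row. All 7 passed the filter on low values, a level of 1 FPKM (defined with the values) or more in 3 or more of the 12 libraries, which 12622 genes passed. BMDMs are macrophages grown with M-CSF from marrow of C57BL/6 mice aged 8 weeks. There were 4 groups of 3 libraries, since wild-type and Nlrp3-/- BMDMs were each sequenced as control and after LPS+ATP. Control BMDMs received neither agent. The labels give lipopolysaccharide (LPS) for 4 hours followed by ATP for 30 minutes in the stimulated groups, whereas the study's methods give longer times for both agents. Nlrp3-/- denotes a global knockout carried by every cell of the mouse and not by macrophages alone. The labels do not say whether the 3 libraries of a group came from separate mice or cultures, so p-values measure the spread between these libraries, which may be technical.

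The oxidase makes superoxide by passing electrons from NADPH to oxygen across the membrane of the phagosome. Its catalytic core is a pair of membrane proteins, gp91phox (Cybb) and p22phox (Cyba), which need each other to be stable. In the resting cell the organizer p47phox (Ncf1) and p40phox (Ncf4) wait in the cytosol, and they join the core together with a Rac GTPase when the cell is stimulated. Loss of the core or of the cytosolic subunits causes chronic granulomatous disease, in which phagocytes cannot kill certain bacteria and fungi. Sod2 encodes the manganese superoxide dismutase of the mitochondrial matrix, which turns superoxide into hydrogen peroxide and is a well-known target of NF-kB in LPS-treated macrophages.

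In GENCODE release M21 on GRCm38, all 7 genes were protein-coding. Cybb lies on chromosome X (9435252-9487771, minus strand), Cyba on chromosome 8 (122424776-122432930, minus) and Sod2 on chromosome 17 (13006846-13040063, plus). The remaining genes share chromosomes in pairs. Ncf1 (134220053-134229625, minus) and Rac1 (143503634-143528036, minus) are on chromosome 5, and Ncf4 (78244801-78262580, plus) and Rac2 (78559167-78572783, minus) are on chromosome 15. The submitters' processing notes name GRCm39, and the table holds no coordinates.

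RefSeq promoters of GRCm38.p6, from 250 bases before to 50 bases after the start, were at hand for 4 of the 7 genes. Those of Cybb and Sod2 are shown because these genes rose most with LPS+ATP, and that of Cyba because it did not rise with Cybb, its partner in the membrane core. Capitals mark matches on either strand to the 5 motifs searched: NF-kB (GGGNNNTTCC), the ETS core (GAGGAA), AP-1 (TGANTCA), the core of the interferon-stimulated response element, ISRE (GAAANNGAAA), and the GC box (GGGCGG). The windows lie at chrX:9469275-9469574 (minus strand), chr8:122432891-122433190 (minus strand) and chr17:13007589-13007888 (plus strand).
Cybb: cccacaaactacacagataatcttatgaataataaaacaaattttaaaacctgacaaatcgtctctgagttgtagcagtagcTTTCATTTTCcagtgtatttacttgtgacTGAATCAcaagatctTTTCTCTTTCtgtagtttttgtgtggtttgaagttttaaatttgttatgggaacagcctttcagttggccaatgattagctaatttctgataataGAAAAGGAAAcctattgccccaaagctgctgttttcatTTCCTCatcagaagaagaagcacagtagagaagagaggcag
Cyba: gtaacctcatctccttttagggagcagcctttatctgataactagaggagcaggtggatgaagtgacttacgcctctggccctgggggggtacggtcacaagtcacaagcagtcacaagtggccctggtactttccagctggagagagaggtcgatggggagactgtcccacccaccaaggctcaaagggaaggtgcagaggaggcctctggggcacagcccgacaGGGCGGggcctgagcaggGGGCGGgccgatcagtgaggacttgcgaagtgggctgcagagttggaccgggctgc
Sod2: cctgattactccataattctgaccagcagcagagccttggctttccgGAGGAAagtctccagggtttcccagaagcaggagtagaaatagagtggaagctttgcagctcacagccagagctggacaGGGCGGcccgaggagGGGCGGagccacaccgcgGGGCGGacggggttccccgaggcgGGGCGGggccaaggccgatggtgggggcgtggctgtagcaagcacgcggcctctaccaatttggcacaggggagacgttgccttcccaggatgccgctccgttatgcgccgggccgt

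The window of Cybb was 35.3% GC and that of Sod2 64.3%, against a median of 52.7% over 32851 promoters. Cybb held 3 ISRE cores, which begin 168, 124 and 29 bases before the start. It also held an AP-1 match and, after the start, an ETS core on the minus strand. An ISRE core was found in 3.44% of all promoters and an AP-1 match in 7.81%. Sod2 held 4 GC boxes and 1 ETS core, Cyba held 2 GC boxes, and Ncf1 (window not shown) held 1 ISRE core and 1 GC box. GC boxes were found in 35.7% of promoters, ETS cores in 28.3% and NF-kB matches in 5.56%. None of the 4 windows held the NF-kB letters as searched (GGGNNNTTCC), which says only that this form is not within these 300 bases. Sites with other letters were not searched for. No 2 of the motif matches overlapped.

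The values were FPKM, which divides a gene's fragments by its length and by the size of the library. Between libraries the FPKM summed to 283278 to 299393, 21122 to 22613 genes were above 0, and relative depth, judged by the smallest steps among low values, was 1.00 to 1.22. Depth in reads is unknown, so no counting interval can be given. Nlrp3 was between 9.24 and 33.7 FPKM in the 6 wild-type libraries and listed at 0 in all 6 Nlrp3-/- libraries. Differences were tested with limma on log2(FPKM + 1), a scale that understates the change of low genes. A gene changed when its Benjamini-Hochberg adjusted p was under 0.05, and a differentially expressed gene (DEG) also differed by 1 or more on the log2 scale. In these units the median of all tested genes moved with the treatment: in wild-type BMDMs it was -0.26 and in the knockout -0.24. When libraries were scaled by median ratios instead, this shift was -0.02 and -0.01. With stimulation in wild-type BMDMs 2940 genes were higher and 6701 lower as deposited, and 4410 and 4578 after median-ratio scaling. In Nlrp3-/- BMDMs the split was 2594 against 6789 as deposited and 4149 against 4118 after scaling.

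With LPS+ATP the RNA levels of the 7 genes moved unevenly. In wild-type BMDMs 5 of the 7 genes rose (Sod2, Cybb, Ncf4, Rac2 and Ncf1), Cyba fell and Rac1 did not pass the test. In Nlrp3-/- BMDMs the same 5 genes rose, while Cyba and Rac1 did not pass the test. Over all tested genes 23.3% were higher and 53.1% lower in wild-type BMDMs, and 20.6% and 53.8% in Nlrp3-/- BMDMs. Sod2 and Cybb were the 2 DEGs among the 7 in both genotypes, against 8.25% of tested genes that were higher DEGs in wild-type and 6.64% in Nlrp3-/- BMDMs. The median log2 fold change of the 7 was 0.60 in wild-type and 0.59 in Nlrp3-/- BMDMs, beside the medians of all tested genes given above. Values of control and stimulated libraries did not overlap for 6 of the 7 genes in either genotype, the exception being Rac1. Over all tested genes, 78.1% did not overlap in wild-type and 77.4% in Nlrp3-/- BMDMs, so the 6 of 7 are near this background. In bulk RNA, a change in the number of cells of a type and a change in RNA per cell cannot be told apart.

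**Figure D1:**
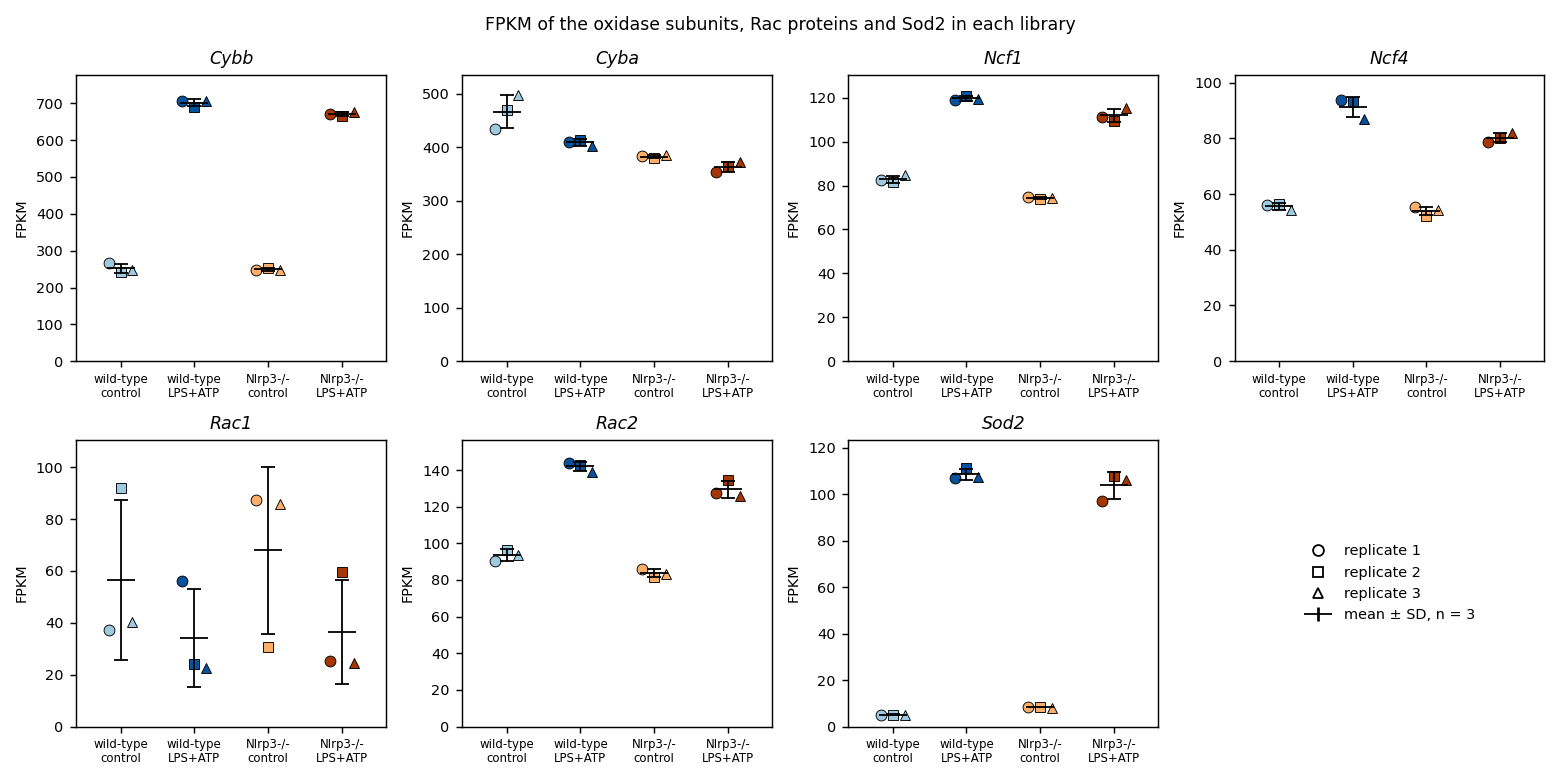
FPKM (vertical axis, from 0) of the 7 genes in each of the 12 libraries by group, with the mean and SD of 3 libraries. Cybb, Ncf1, Ncf4, Rac2 and Sod2 were higher in every LPS+ATP library than in every control library, Cyba was highest in wild-type control BMDMs, and the Rac1 libraries of every group were spread widely.

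Cybb, the catalytic subunit, was among the most strongly expressed of the 7 genes and rose in every stimulated library. In wild-type control BMDMs it was 265, 243 and 248 FPKM in replicates 1 to 3, and in wild-type LPS+ATP BMDMs 707, 690.3 and 706 FPKM. Without Nlrp3 it was 248, 254 and 247 FPKM in control and 671, 667 and 676 FPKM after LPS+ATP. The control libraries of the genotypes overlapped, and the stimulated ones lay far above both. The mean was 2.78 times the control level in wild-type and 2.69 times in Nlrp3-/- BMDMs, with log2 fold changes of 1.47 (SE 0.0310, limma adjusted p = 3.506e-12) and 1.42 (adjusted p = 6.092e-12). After median-ratio scaling the rise was 1.79 in wild-type BMDMs.

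Cyba encodes p22phox, the stabilizing partner of gp91phox, and it did not follow Cybb. It was 434, 469 and 497 FPKM in wild-type control BMDMs and 410.3, 414 and 402 FPKM in wild-type LPS+ATP BMDMs. Nlrp3-/- BMDMs had 383, 379 and 385 FPKM in control and 354, 364 and 373 FPKM after LPS+ATP. The 4 groups thus stood in an order without overlap, with wild-type control highest and Nlrp3-/- LPS+ATP lowest. The log2 fold change with stimulation was -0.19 (SE 0.0419, limma adjusted p = 0.001688) in wild-type BMDMs and -0.07 (95% interval -0.16 to 0.02, adjusted p = 0.1424, or 0.03198 in a fit of these 6 libraries alone) in Nlrp3-/- BMDMs. The Cyba differences were smaller than the median fall of all tested genes, and its direction depended on the scale. Cyba lies within the span of Gm20388 on the other strand, a gene listed at 0 in all libraries. With median-ratio scaling Cyba was higher after LPS+ATP, by 0.13 (adjusted p = 0.02012) in wild-type and 0.23 (adjusted p = 0.0007893) in Nlrp3-/- BMDMs.

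The ratio of Cybb to Cyba within a library does not depend on how libraries are scaled. It was 0.612, 0.518 and 0.499 in wild-type control BMDMs and 1.72, 1.67 and 1.75 after LPS+ATP. The ratio in Nlrp3-/- BMDMs was 0.647, 0.670 and 0.641 in control and 1.89, 1.83 and 1.81 after LPS+ATP. In FPKM, the level of Cyba exceeded that of Cybb in all 6 control libraries, and the reverse held in all 6 stimulated libraries. The log2 ratio rose by 1.66 (SE 0.0931) in wild-type and 1.499 (SE 0.0271) in Nlrp3-/- BMDMs. With 3 libraries against 3 the exact two-sided permutation test gave p = 0.1 for both, the smallest p this design allows.

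**Figure D2:**
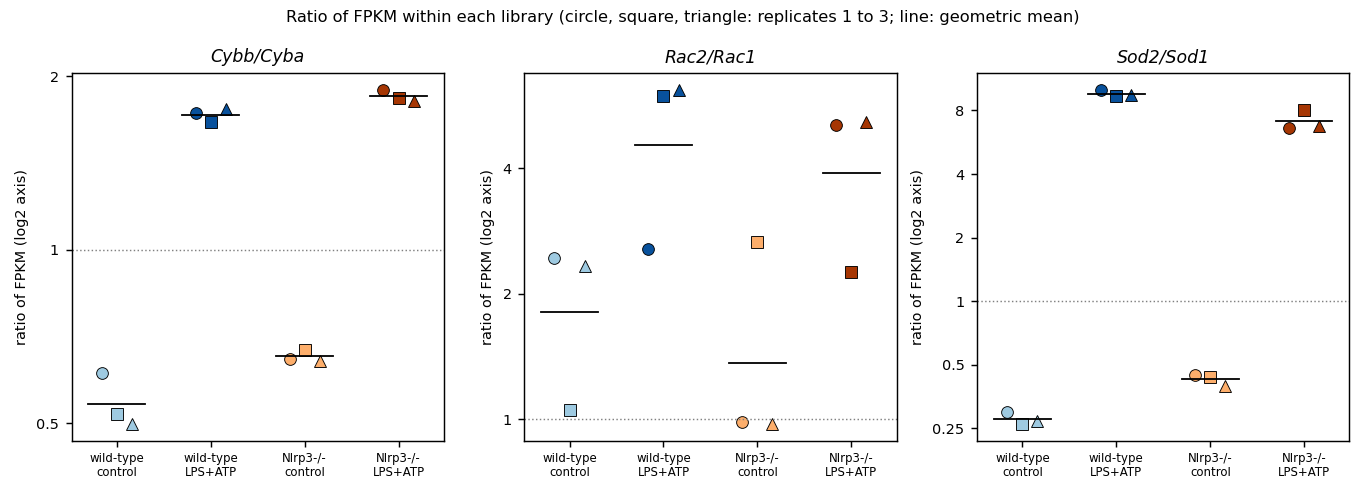
Ratio of the FPKM of 2 genes within each library (log2 vertical axis), with 3 replicates per group as symbols, the geometric mean as a line and equality as a dotted line. Cybb/Cyba lay below 1 in all control and above 1 in all LPS+ATP libraries, as did Sod2/Sod1, whereas Rac2/Rac1 varied within each group.

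Among the cytosolic subunits, Ncf1 and Ncf4 rose by moderate amounts. Ncf1, the organizer that brings the cytosolic complex to p22phox, was 82.5, 81.4 and 84.6 FPKM in wild-type control and 119, 121 and 119 FPKM in wild-type LPS+ATP BMDMs. In Nlrp3-/- BMDMs it was 74.6, 73.7 and 74.2 FPKM in control and 111, 109.6 and 115 FPKM after LPS+ATP. No neighbouring groups overlapped, in the order Nlrp3-/- control, wild-type control, Nlrp3-/- LPS+ATP, wild-type LPS+ATP. The log2 fold change was 0.53 (SE 0.0265, limma adjusted p = 6.851e-09) in wild-type and 0.59 (adjusted p = 3.47e-09) in Nlrp3-/- BMDMs. Ncf1 overlaps Gtf2ird2 on the other strand over 4303 bases, and Gtf2ird2 was at 0.934 to 2.10 FPKM. Whether counting used strand is not given in the sources used here, so reads of antisense partners cannot be told apart.

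Ncf4, the subunit that binds phosphatidylinositol 3-phosphate on phagosomes, was 56.0, 56.6 and 54.2 FPKM in wild-type control and 93.8, 92.9 and 87.1 FPKM in wild-type LPS+ATP BMDMs. It was 55.2, 52.3 and 54.3 FPKM in Nlrp3-/- control and 78.6, 80.3 and 81.9 FPKM in Nlrp3-/- LPS+ATP BMDMs. Control libraries of the genotypes overlapped, whereas each stimulated wild-type library was above each stimulated Nlrp3-/- library. The log2 fold change was 0.70 (SE 0.0360, limma adjusted p = 7.979e-09) in wild-type and 0.56 (adjusted p = 7.461e-08) in Nlrp3-/- BMDMs, and median-ratio scaling made it 1.02 in wild-type BMDMs.

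Rac2 is the Rac GTPase found mainly in blood cells. It was 90.1, 96.6 and 93.6 FPKM in wild-type control and 144, 143 and 139 FPKM in wild-type LPS+ATP BMDMs. Its level in Nlrp3-/- BMDMs was 85.9, 81.9 and 83.5 FPKM in control and 128, 135 and 126 FPKM after LPS+ATP. The groups did not overlap and stood in the same order as for Ncf1. The log2 fold change with stimulation was 0.60 (SE 0.0354, limma adjusted p = 2.82e-08) in wild-type and 0.62 (adjusted p = 2.76e-08) in Nlrp3-/- BMDMs.

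Rac1, the GTPase present in nearly all cell types, varied more between replicates than between groups. It was 37.0, 92.0 and 40.3 FPKM in wild-type control, 56.1, 24.0 and 22.6 FPKM in wild-type LPS+ATP, 87.2, 30.7 and 85.7 FPKM in Nlrp3-/- control, and 25.1, 59.6 and 24.4 FPKM in Nlrp3-/- LPS+ATP BMDMs. In every group 1 library stood apart from the other two, and all neighbouring groups overlapped. The log2 difference with stimulation was -0.70 (95% interval -1.87 to 0.46, limma adjusted p = 0.2441) in wild-type and -0.86 (-2.03 to 0.30, adjusted p = 0.1598) in Nlrp3-/- BMDMs. Without replicate 2 of Nlrp3-/- control BMDMs, the Rac1 difference there was -1.35 (adjusted p = 0.03662).

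The within-group SD of Rac1 was 0.748 on the log2 scale. Of the 2150 genes with a mean of at least 20 FPKM, whose median SD was 0.058, 8 had a larger one. The other 6 genes had SDs of 0.0241 to 0.0539. In GENCODE, Rac1 overlaps Daglb on the other strand over 2309 bases, and 55.5% of its longest transcript (4159 bases) is identical to a Daglb transcript. Daglb, a lipase gene, was 11.5 to 11.8 FPKM in the 3 wild-type control libraries between which Rac1 ranged from 37.0 to 92.0. In Nlrp3-/- control BMDMs Daglb was 9.046 to 9.806 FPKM, and its libraries stood in the same order as those of Rac1. The order was opposite in both wild-type groups, and in Nlrp3-/- LPS+ATP BMDMs both genes were highest in the same library. Whether reads of Daglb had a part in the spread of Rac1 was not tested. Daglb was 0.687 to 0.968 FPKM in wild-type LPS+ATP BMDMs.

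The ratio of the 2 GTPases varied within groups as well. Rac2/Rac1 was 2.43, 1.05 and 2.33 in wild-type control and 2.56, 5.95 and 6.16 in wild-type LPS+ATP BMDMs, and it was 0.985, 2.66 and 0.975 in Nlrp3-/- control and 5.08, 2.26 and 5.16 in Nlrp3-/- LPS+ATP BMDMs. The exact two-sided permutation p of the log2 ratio of Rac2 to Rac1 with stimulation was 0.1 in wild-type, the smallest possible, and 0.2 in Nlrp3-/- BMDMs.

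Sod2 changed more than any of the other 6 genes. It was 5.09, 4.79 and 5.15 FPKM in wild-type control and 107, 111 and 107 FPKM in wild-type LPS+ATP BMDMs. In Nlrp3-/- BMDMs it was 8.47, 8.45 and 8.17 FPKM in control and 97.2, 108 and 106 FPKM after LPS+ATP. The control groups did not overlap, with Nlrp3-/- above wild-type, whereas the stimulated groups did. The mean was 21.7 times the control level in wild-type and 12.4 times in Nlrp3-/- BMDMs. The log2 fold change was 4.19 (SE 0.0431, limma adjusted p = 1.212e-14) and 3.48 (adjusted p = 5.93e-14).

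Sod1, the cytosolic copper-zinc enzyme, fell in FPKM, by 0.64 on the log2 scale (limma adjusted p = 2.618e-06) in wild-type and fell by 0.40 (adjusted p = 0.0001445) in Nlrp3-/- BMDMs. It was 17.1, 18.3 and 19.1 FPKM in wild-type control and 10.7, 11.9 and 11.3 FPKM in wild-type LPS+ATP BMDMs, and 19.0, 19.3 and 20.6 FPKM in Nlrp3-/- control and 14.7, 13.4 and 15.8 FPKM in Nlrp3-/- LPS+ATP BMDMs. With median-ratio scaling, Sod1 fell by 0.35 on the log2 scale in wild-type BMDMs, and its difference of -0.12 in Nlrp3-/- BMDMs did not pass the test (limma adjusted p = 0.1225). Sod2/Sod1 within a library was 0.262 to 0.297 in wild-type control, 9.35 to 10.01 in wild-type LPS+ATP, 0.398 to 0.445 in Nlrp3-/- control and 6.59 to 8.07 in Nlrp3-/- LPS+ATP BMDMs. The level of Sod1 was thus above that of Sod2 in all control libraries and below it in all stimulated ones. The exact two-sided permutation p for Sod2/Sod1 was 0.1, the smallest possible, in each of the 4 comparisons.

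**Figure D3:**
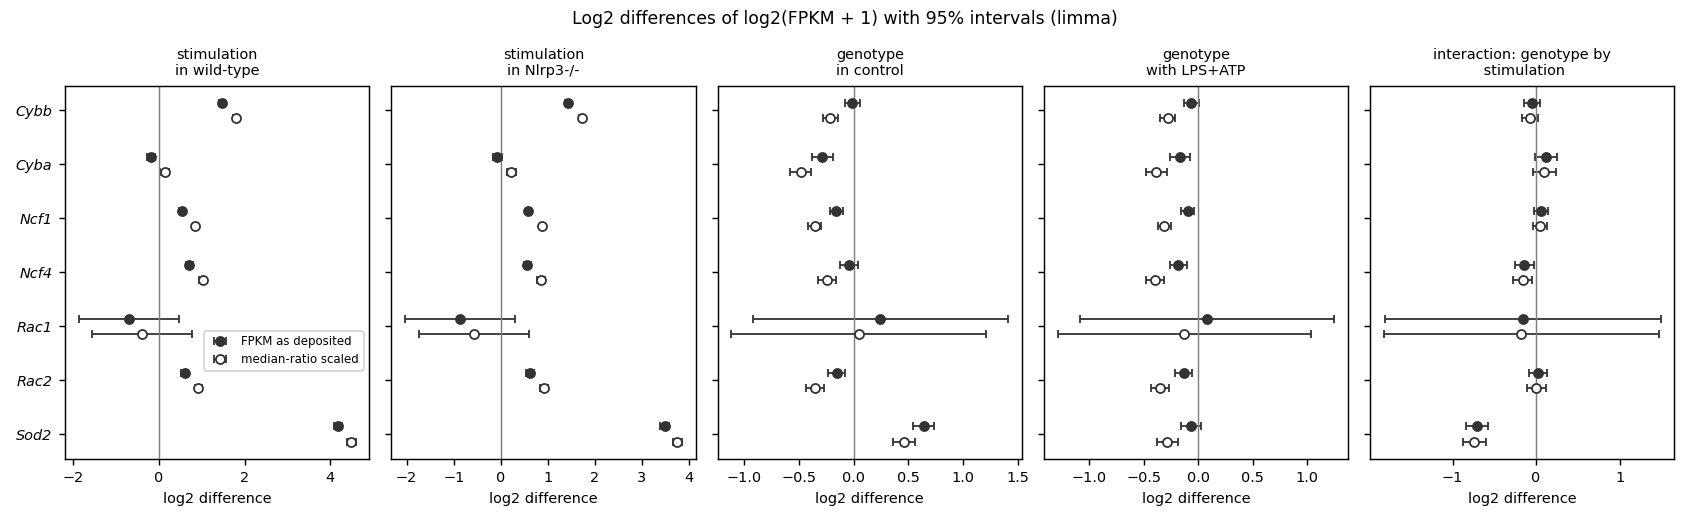
Log2 differences (horizontal axes) of the 7 genes in 5 comparisons on log2(FPKM + 1), with 95% intervals from limma, for FPKM as deposited (filled) and after median-ratio scaling (open). Sod2 and Cybb had the largest rises with LPS+ATP, Cyba was below 0 as deposited and above 0 after scaling in both stimulation panels, and the intervals of Rac1 spanned 0.

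The genotypes differed in measures other than Nlrp3. The summed FPKM of 9 neutrophil and granulocyte precursor markers, cells that also carry the oxidase, was 253 to 287 in wild-type control and 1495 to 1541 in Nlrp3-/- control BMDMs, and 313 to 325 and 636 to 641 after LPS+ATP. Lcn2 among them rose with LPS+ATP, from a mean of 9.96 to 218 FPKM in wild-type BMDMs, and the sum of the other 8 was 243 to 277 in wild-type control, 1450 to 1500 in Nlrp3-/- control, 92.1 to 108 in wild-type LPS+ATP and 419 to 447 in Nlrp3-/- LPS+ATP BMDMs, a sum chosen after the data were seen. Of the 9, none was at 0 in all libraries of a group, and Ly6g, which marks mature neutrophils, reached at most 0.781 FPKM. The sum of 5 fibroblast markers was 157 to 161 in wild-type control, 1164 to 1180 in Nlrp3-/- control, 180.1 to 183 in wild-type LPS+ATP and 889.8 to 905 in Nlrp3-/- LPS+ATP BMDMs. The 8 macrophage markers were all above 0 in every library. Their sum was 19850 to 21090 in wild-type control and 18930 to 19210 in Nlrp3-/- control BMDMs. After LPS+ATP the sum was 11180 to 11270 in wild-type and 10540 to 10770 in Nlrp3-/- BMDMs. Most of it was Lyz2, whose mean went from 18460 to 9471 FPKM with LPS+ATP in wild-type BMDMs. Cd68, Csf1r, Mertk and Mrc1 fell there too, and Itgam overlapped. Adgre1 rose from a mean of 237 to 460.3 FPKM in wild-type BMDMs, and Fcgr1 from 51.2 to 203.8 FPKM. In Nlrp3-/- control BMDMs the mean FPKM of Cd68 was 877 against 1450 in wild-type control BMDMs, and that of Csf1r 165 against 253. Adgre1 was at 184 against 237, Mrc1 at 62.8 against 95.6 and Fcgr1 at 38.5 against 51.2 FPKM. Mertk was higher, at 34.05 against 32.35 FPKM. Lyz2 (17690 against 18460) and Itgam (55.7 against 60.8) overlapped between the genotypes. Cyba, Ncf1 and Rac2 were lower in the same libraries, and a link to these markers was not tested. The sums of the dendritic cell, B cell, T cell, mast cell and erythroid lists reached at most 10.2 FPKM. Xist was at most 0.0416 FPKM in wild-type and 32.8 to 56.3 FPKM in Nlrp3-/- libraries, and the Y-linked genes Ddx3y and Eif2s3y were at 0 in Nlrp3-/- libraries alone, so that the sex of the donors and the genotype cannot be told apart. Cybb is X-linked. The part of these differences in the results on genotype was not tested.

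Against that background, 4 of the 7 genes differed between the genotypes in control BMDMs. Sod2 was higher in Nlrp3-/- control BMDMs, and Cyba, Ncf1 and Rac2 were lower. Over all tested genes 33.3% were higher and 14.5% lower in Nlrp3-/- control BMDMs. The mean of Sod2 was 1.67 times the wild-type level, with a log2 difference of 0.64 (SE 0.0431, limma adjusted p = 2.728e-07). Cyba was 0.820 times the wild-type level, the log2 difference being -0.28 (adjusted p = 0.0001799). The differences of Ncf1 (-0.16, adjusted p = 0.0004833) and Rac2 (-0.16, adjusted p = 0.003739) were smaller, and neither gene's libraries overlapped between genotypes.

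Cybb and Ncf4 did not pass the test in control BMDMs. The difference of Cybb was -0.01 (95% interval -0.08 to 0.05, limma adjusted p = 0.7514) and that of Ncf4 -0.04 (-0.12 to 0.04, adjusted p = 0.3583). This depended on the scale, since median-ratio scaling gave -0.21 for Cybb (adjusted p = 0.0001411) and -0.24 for Ncf4 (adjusted p = 0.0002422). Rac1 differed by 0.24 with an interval of -0.92 to 1.41 (adjusted p = 0.7385). Median-ratio scaling moved the median of all tested genes from 0.09 to -0.07 in this comparison, and the split of higher to lower genes from 4203 against 1832 to 2341 against 3804.

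After LPS+ATP 4 of the 7 genes were lower in Nlrp3-/- BMDMs, against 12.6% lower and 35.9% higher over all tested genes. Rac1 was the 1 gene with a positive difference, of 0.08, and it did not pass the test (limma adjusted p = 0.9131). The log2 differences were -0.18 for Ncf4 (limma adjusted p = 0.00147), -0.17 for Cyba (adjusted p = 0.006286), -0.13 for Rac2 (adjusted p = 0.009036) and -0.10 for Ncf1 (adjusted p = 0.01129). As ratios of mean FPKM, these genes stood at 0.880 (Ncf4), 0.890 (Cyba), 0.911 (Rac2) and 0.936 (Ncf1) times the wild-type level. Cybb did not pass the test, at -0.06 (95% interval -0.13 to 0.01, adjusted p = 0.1179), although each stimulated wild-type library lay above each stimulated Nlrp3-/- library, and a limma fit of these 6 libraries alone gave the same difference an adjusted p of 0.02338. Sod2 differed by -0.07 (-0.16 to 0.03, adjusted p = 0.242), and its libraries overlapped. The median difference of the 7 genes was -0.04 in control and -0.10 in LPS+ATP BMDMs, while that of all tested genes was 0.09 and 0.11.

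With median-ratio scaling 6 of the 7 genes passed the test as lower in stimulated Nlrp3-/- BMDMs. Rac1, at -0.13, did not pass it (limma adjusted p = 0.8596). Cybb then differed by -0.28 and Sod2 by -0.28 (limma adjusted p = 0.0002819). The split of all genes moved from 4531 higher and 1593 lower to 2711 and 3755, and their median from 0.11 to -0.06. The Cybb/Cyba ratio, free of this choice, was 0.653 ± 0.0150 (SD, n = 3) in Nlrp3-/- control against 0.543 ± 0.0606 (SD, n = 3) in the wild-type control group, and 1.84 ± 0.0429 against 1.72 ± 0.0437 (SD, n = 3 each) after LPS+ATP. For both, the exact two-sided permutation p was 0.1, the smallest possible.

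Whether stimulation acted differently in the genotypes was tested by the interaction, the rise in Nlrp3-/- minus the rise in wild-type BMDMs. Sod2 alone of the 7 genes passed, against 27.7% of tested genes in either direction. Its rise was smaller in Nlrp3-/- BMDMs by 0.71 on the log2 scale (interaction -0.71, SE 0.0609, 95% interval -0.84 to -0.57, limma adjusted p = 1.07e-05). The values behind it were a control level of 8.36 ± 0.165 FPKM (SD, n = 3) in Nlrp3-/- against 5.01 ± 0.190 FPKM (SD, n = 3) in wild-type BMDMs, and stimulated levels of 104 ± 5.75 and 109 ± 2.28 FPKM (SD, n = 3 each), whose difference did not pass the test. The interaction of Ncf4 was -0.14 (adjusted p = 0.0656) as deposited and -0.16 (adjusted p = 0.04258) after median-ratio scaling. For Cyba it was 0.12 (adjusted p = 0.1803), for Ncf1 0.06 (adjusted p = 0.2618), for Cybb -0.05 (adjusted p = 0.4521), for Rac2 0.02 (adjusted p = 0.7897) and for Rac1 -0.16 (adjusted p = 0.9059). Leaving out 1 library let 3 further interactions pass. Without replicate 1 of wild-type control BMDMs it was -0.09 for Cybb (adjusted p = 0.04569) and 0.17 for Cyba (adjusted p = 0.01171), and without replicate 3 of wild-type LPS+ATP BMDMs -0.17 for Ncf4 (adjusted p = 0.0242).

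The partners and regulators of the oxidase, 22 genes that were all tested, moved in both directions with stimulation. In wild-type BMDMs 8 rose and 14 fell, with a median of -0.35, while over all tested genes 23.3% were higher and 53.1% lower with a median of -0.26. For Nlrp3-/- BMDMs the counts were 6 that rose, 13 that fell and 3 that did not pass the test, with a median of -0.17, and the shares over all tested genes were 20.6% and 53.8% with a median of -0.24. BC017643, which encodes the chaperone Eros (Cybc1) needed for gp91phox and p22phox to reach the membrane, rose with Cybb. It was 12.7, 14.8 and 13.8 FPKM in wild-type control and 38.4, 38.4 and 38.6 FPKM in wild-type LPS+ATP BMDMs, a log2 fold change of 1.42 (limma adjusted p = 1.371e-09), and 1.13 in Nlrp3-/- BMDMs. Exchange factors, which load Rac with GTP, moved in both directions. Vav3 (-1.98 in wild-type and -2.11 in Nlrp3-/-), Tiam1 (-1.51 and -1.45) and Dock2 (-1.51 and -1.63) fell, whereas Vav1 (0.63 and 0.67) and Prex1 (0.69 and 0.46) rose. Vav2 fell as well, from a mean of 7.85 to 2.85 FPKM in wild-type and from 9.63 to 3.90 FPKM in Nlrp3-/- BMDMs. Arhgap25 (-1.27 and -1.39), a GTPase-activating protein for Rac, fell. After median-ratio scaling 8 of the 22 rose and 8 fell in wild-type BMDMs, and 10 rose and 9 fell in Nlrp3-/- BMDMs.

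Between the genotypes, 3 of the 22 partners were higher and 9 lower in Nlrp3-/- control BMDMs, and 7 were higher and 9 lower after LPS+ATP. Over all tested genes 33.3% were higher and 14.5% lower in control, and 35.9% and 12.6% after LPS+ATP. With median-ratio scaling 1 of the 22 was higher and 13 lower in control, and 4 were higher and 15 lower after LPS+ATP. Protein kinase C alpha (Prkca), one of the kinases that phosphorylate p47phox, was the 1 DEG, at 1.13 (limma adjusted p = 3.767e-07) in control BMDMs. The interaction passed for 8 of the 22, with 5 positive and 3 negative, against 27.7% of all tested genes.

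No other NADPH oxidase reached the filter. Of 9 listed genes of the Nox and Duox families and their partners, Noxo1 was highest at no more than 0.817 FPKM, Nox4 reached 0.409 FPKM, and Noxa1 and Duoxa2 were listed at 0 in all libraries. Cybb, which encodes NOX2, was at least 243 FPKM in every library.

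Of 15 other genes that remove superoxide and peroxide, all tested, 4 rose and 8 fell with stimulation in wild-type BMDMs, and 4 rose and 9 fell in Nlrp3-/- BMDMs. These counts are near the shares over all tested genes, of which 23.3% were higher and 53.1% lower in wild-type and 20.6% and 53.8% in Nlrp3-/- BMDMs. The 4 that rose were the peroxiredoxins Prdx5 (2.79 in wild-type and 2.23 in Nlrp3-/-), Prdx6 (1.98 and 1.57) and Prdx1 (1.94 and 1.55), and extracellular Sod3 (1.72 and 1.48). The glutathione peroxidase Gpx1, which clears hydrogen peroxide in cytosol and mitochondria, fell by 2.46 on the log2 scale in wild-type and by 1.89 in Nlrp3-/- BMDMs. Gpx1 was spread widely in wild-type LPS+ATP BMDMs, at 62.4, 24.1 and 35.4 FPKM, below the 199 to 222 FPKM of wild-type control BMDMs. Prdx5 was higher in Nlrp3-/- control BMDMs, at 80.9 against 57.3 FPKM, and its interaction was -0.56 (limma adjusted p = 0.0001677). Among the 15 genes 2 positive and 5 negative interactions passed the test, against 27.7% of all tested genes in either direction. Sod3 was 36.9 to 38.3 FPKM in Nlrp3-/- control against 10.8 to 12.4 FPKM in wild-type control BMDMs (log2 difference 1.61, adjusted p = 2.171e-10), and 1.37 higher after LPS+ATP. Median-ratio scaling gave 6 that rose and 5 that fell in wild-type BMDMs, and 7 and 4 in Nlrp3-/- BMDMs.

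The 10 genes of NADPH supply, the substrate of the oxidase, were all tested as well. With stimulation 3 rose and 6 fell in wild-type BMDMs, and 3 rose and 5 fell in Nlrp3-/- BMDMs, again near the shares over all tested genes (23.3% higher and 53.1% lower, and 20.6% and 53.8%). Malic enzyme Me1 rose by 1.36 (limma adjusted p = 6.681e-09) in wild-type BMDMs, and the isocitrate dehydrogenases Idh1 (-1.64 in wild-type and -1.16 in Nlrp3-/-) and Idh2 (-1.62 and -1.22) fell. Idh1 varied within the control groups, from 62.7 to 93.0 FPKM in wild-type and from 52.1 to 90.3 FPKM in Nlrp3-/- BMDMs. In the pentose phosphate pathway Pgls fell (-1.07 in wild-type), whereas G6pdx (0.45 in wild-type and 0.16 in Nlrp3-/-) and Pgd (0.85 and 0.70), which encode its NADPH-forming enzymes, rose. Between the genotypes Me1 was higher in Nlrp3-/- control BMDMs by 1.71 (adjusted p = 3.943e-09). Nnt, the mitochondrial transhydrogenase, was 7.67 to 10.3 FPKM in wild-type control and 0.827 to 1.47 FPKM in Nlrp3-/- control BMDMs (log2 difference -2.27, adjusted p = 6.47e-08), and also lower after LPS+ATP (-1.47, adjusted p = 2.778e-06). Nnt is known to carry a deletion in the C57BL/6J substrain. The study's methods name no substrain and give different suppliers for the wild-type and the Nlrp3-/- mice. Substrain and genotype therefore cannot be told apart, and a part of substrain in the results on genotype was not tested. After median-ratio scaling 4 of the 10 rose and 4 fell in each genotype.

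**Figure D4:**
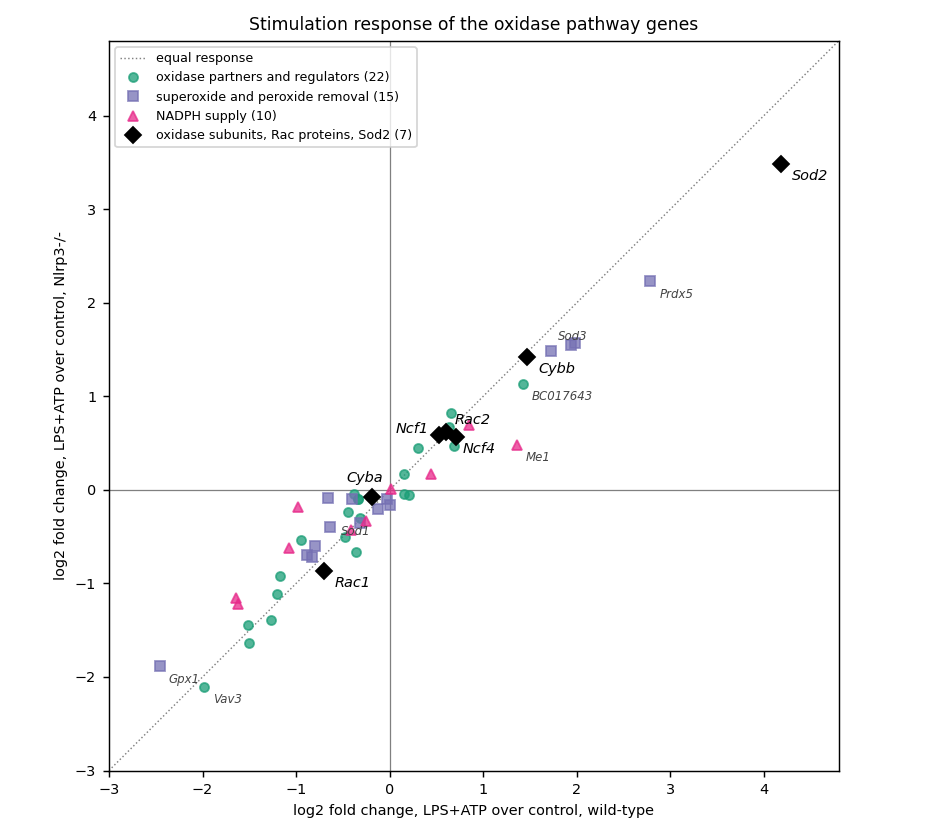
Log2 fold change with LPS+ATP in wild-type (horizontal axis) against Nlrp3-/- BMDMs (vertical axis) for the 7 genes (diamonds) and 47 listed pathway genes, on log2(FPKM + 1) with equal response as a dotted line. Sod2 lay farthest to the upper right at 4.19 and 3.48, and Prdx5 followed, with Prdx6, Prdx1, Sod3, Cybb and BC017643 below it, while Gpx1 and Vav3 lay at the lower left.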

How the data were processed

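Total RNA of 12 BMDM libraries was sequenced (TruSeq RNA kit), and the authors deposited 1 table of FPKM per gene and library. The aligner, counter, annotation, strand setting and gene lengths are not given in the sources used here. FPKM allows no count test. Genes that reached FPKM 1 in 3 or more libraries were tested on log2(FPKM + 1), with a pseudocount of 1, in limma 3.58.1 (R 4.3.3), with 4 group means and a variance trend. P-values were adjusted over all 12622 genes tested. Ratios of 2 genes were compared by exact permutation in scipy 1.17.1. Of the gene identifiers, 55154 were in GENCODE M21. The fit was tested on simulated data in which only a small share of the genes was shifted. That setting holds no shift of the median of all genes, so it does not bear on the choice of scaling. No library column was left unused. All 7 genes were named, with, per pathway list and comparison, at most 4 DEGs, and the 3 genes most like each of the 7, except 1 gene that is not reported here. Sod1, Vav1, Vav2, Prex1, G6pdx, Pgd, Nlrp3, Daglb, Gtf2ird2, Xist and Y-linked genes were added as partners or checks, after their values were seen. The 7 genes and the lists were chosen with earlier results of these data known. Alternatives were pseudocount 0.1, no filter, FPKM of at least 5, TPM, median-ratio and upper-quartile scaling, a replicate block, no variance trend, the compared groups alone, DEG criteria and leaving out each library.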

Additional observations from a re-analysis of the deposited data

Results flagged for a closer look

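The rise of Sod2 with LPS+ATP differed between genotypes by a test of the difference itself. The interaction was -0.71 on the log2(FPKM + 1) scale (limma adjusted p = 1.07e-05), with higher Sod2 in 3 of 3 Nlrp3-/- control libraries than in any wild-type control library and overlapping stimulated libraries. Over the alternatives the interaction of Sod2 lay between -0.79 (pseudocount 0.1) and -0.66 (without replicate 1 of Nlrp3-/- LPS+ATP BMDMs), with adjusted p of at most 9.449e-05. The markers of granulocyte precursors and fibroblasts, donor sex and Nnt moved with genotype as described above, and their part was not tested.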

How the results depend on the processing

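Counts of changed genes among the 7 (6 and 5 with stimulation in wild-type and Nlrp3-/-, 4 and 4 for genotype in control and LPS+ATP, 1 for the interaction) held within 1.5 times under every alternative run except these. DEG criteria gave 2, 2, 0, 0 and 0. The interaction count was 2 with median-ratio and 2 with upper-quartile scaling (Sod2 and Ncf4), and 1 to 3 when a library was left out, with 3 (Sod2, Cyba and Cybb) without replicate 1 of wild-type control and 2 (Sod2 and Ncf4) without replicate 3 of wild-type LPS+ATP BMDMs. Both genotype counts reached the limit of 1.5 times with median-ratio and with upper-quartile scaling, at 6 of the 7 genes (all but Rac1). Directions turned as follows. Cyba with stimulation became 0.13 in wild-type and 0.23 in Nlrp3-/- BMDMs with median-ratio scaling, and 0.055 in Nlrp3-/- BMDMs with upper-quartile scaling. Rac1 by genotype after LPS+ATP became -0.13 with median-ratio and -0.032 with upper-quartile scaling, and the Rac2 interaction -0.026 with upper-quartile scaling. Leaving out 1 library moved Cybb by genotype in control between -0.039 and 0.024, Rac1 between -0.0051 and 0.73 (genotype in control), -0.33 and 0.50 (genotype after LPS+ATP) and -0.65 and 0.25 (interaction), the Rac2 interaction between -0.0064 and 0.048, and log2 Rac2/Rac1 by genotype after LPS+ATP between -0.64 and 0.17. The cause was not tested. Of 560 alternative values of single genes, 523 kept direction and side of the threshold, 16 passed it newly, 1 no longer passed and 20 turned. The 1 that no longer passed was Cyba with stimulation in wild-type BMDMs under upper-quartile scaling, at -0.013 (limma adjusted p = 0.798).

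Upper-quartile scaling moved the split of all genes by genotype to 3265 higher and 2373 lower in control and 3311 and 2610 after LPS+ATP BMDMs. Same-numbered libraries of different groups correlated in their deviations from the group means at -0.057 to 0.053, and other-numbered ones at -0.069 to 0.099, so the replicate numbers were not taken as pairs. The fit with a replicate block gave the same counts (6, 5, 4, 4 and 1) and the same genes. Depth in reads is unknown, and 3 libraries per group limit all tests.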

Other observations

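Across the 12 libraries the 7 genes fell into patterns that are described without a test, since the libraries share their groups and genes rising with LPS+ATP correlate by that alone. Pearson's r of log2(FPKM + 1) between Cybb, Ncf1, Ncf4, Rac2 and Sod2 was 0.942 to 0.991, and Cyba correlated with these 5 at -0.535 to -0.246. The genes most like Cybb over the 12 libraries were Gbp7 (r = 0.9997), Gm18853 (0.9993) and Mfap3l (0.9992), and those most like Sod2 were Map2k1 (0.9996), Ptges (0.9995) and Slc7a11 (0.9994). For Ncf1 they were Slfn2 (0.9977), Clcn7 (0.9969) and Oas3 (0.9966), for Rac2 Syk (0.9960), Clcn7 (0.9957) and Slc11a1 (0.9951), and for Ncf4 Ptgir (0.9952), Trim30b (0.9948) and Naip2 (0.9945). Cyba was most like Gm7600 (0.9629) and Mthfsl (0.9577). Rac1 was most like Mesd (0.9504), Gm7162 (0.8911) and Ulk3 (0.8513).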
